A study of Mus musculus with 23 samples.

Results

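The effect of obesity on tumor-adjacent mammary fat was described here in mice that received an isotype control antibody, so that no checkpoint blockade was present. The comparison used the libraries whose labels name IgG2a, 5 from obese and 5 from lean mice, out of 23 libraries in the series. The animals were female C57BL/6J mice carrying E0771-luciferase tumors, a mouse mammary cancer line of the same strain. Each mouse had 250000 cells in 25% matrigel placed in mammary gland 4. Obese mice ate a diet with 60% of energy from fat, and lean mice are labelled as fed 10% of energy from fat. The feeding text attached to every sample, lean ones included, describes only the high-fat food, given between 8 and 26 weeks of age. Both groups were given 200 µg of IgG2a into the abdomen every 3 days until sacrifice on day 21, beginning 3 days after the tumor cells. The other 13 libraries, 8 obese and 5 lean, came from mice given anti-PD-1. They are read side by side below, and they also enter the fit, in which all groups share each gene's estimate of the spread. The labels describe individual mice but do not state that each library is a separate animal, so p-values measure the spread between these libraries.

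White fat takes up glucose, burns part of it through pyruvate and the citric acid cycle, and stores the rest as glycogen or as triglyceride. Pyruvate enters mitochondria through the pyruvate carrier and is turned into acetyl-CoA by the pyruvate dehydrogenase complex or into oxaloacetate by pyruvate carboxylase. In long-term obesity, fat is known for blunted glucose handling and for the entry of macrophages. Levels are given as CPM, the counts of a gene scaled to a common library size, and differences as log2 fold changes of obese minus lean. A gene is called at an adjusted p under 0.05 in edgeR's quasi-likelihood test with Benjamini-Hochberg adjustment over all genes tested. Because the tissue is bulk, fewer cells of a type and less RNA per cell cannot be told apart.

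The libraries held 50204192 to 68700109 estimated counts in obese mice and 49438121 to 77369057 in lean mice. Adipocyte markers were abundant in both groups, and Adipoq, the adipocyte hormone adiponectin, stood at 688 to 2671 CPM in obese and 1057 to 3350 CPM in lean libraries. The libraries differed in what else they held. The mean log2 CPM of 10 B cell markers was 7.47 and 7.81 in obese libraries 1 and 3, and between -1.06 and -0.57 in obese libraries 2, 4 and 5. In lean mice it was 5.16 to 7.25 in libraries 1 to 4 and -1.68 in library 5. The score of 6 lymph node stroma markers divided the libraries the same way. Hmga2, a chromatin protein of embryonic and many tumor cells, was at 94.2, 18.9 and 170 CPM in obese libraries 2, 4 and 5, at 0.510 and 0.323 CPM in obese libraries 1 and 3, and at 0.0890 to 0.849 CPM in lean libraries. Fosl1, an AP-1 transcription factor, followed it, with 104, 17.2 and 121 CPM in obese libraries 2, 4 and 5 and at most 1.31 CPM in any other IgG2a library. Obese library 5 also held liver transcripts, with Alb, albumin, at 6363 CPM against at most 222 CPM in the other 9. Muscle transcripts led by Ckm, muscle creatine kinase, reached 78.2 CPM in obese library 3, and 574 and 50.4 CPM in lean libraries 1 and 2.

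**Figure D1:**
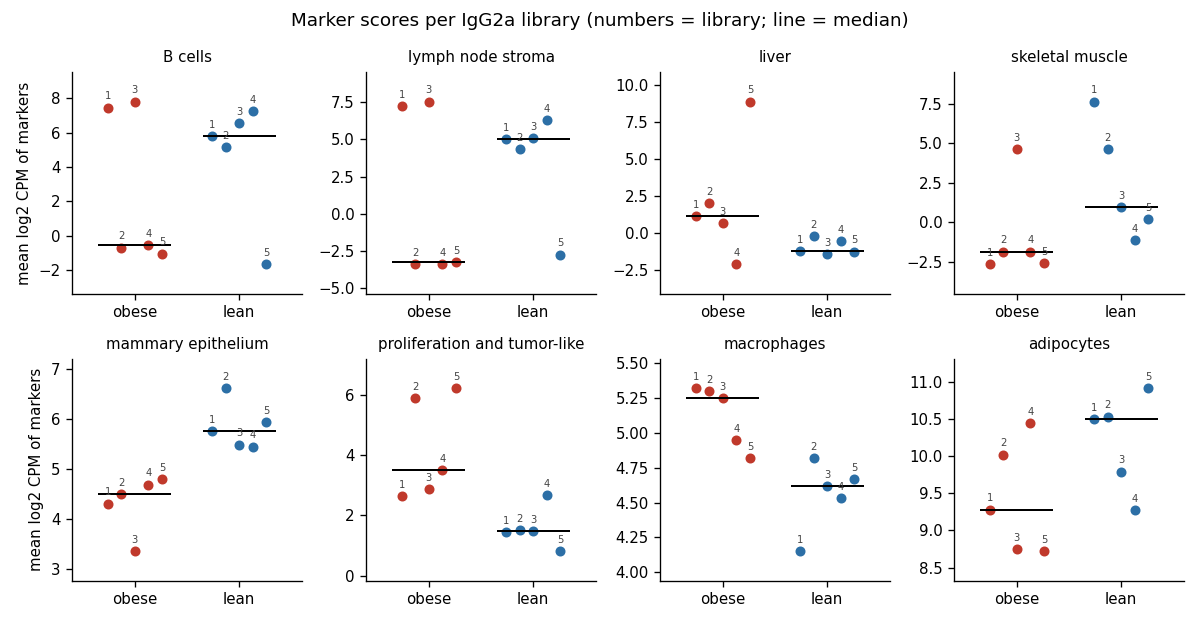
Marker scores (mean log2 CPM of each list's members) for 5 obese (red, left) and 5 lean (blue, right) IgG2a libraries, numbered by library, with the group median as a line. B cell and lymph node stroma scores divide obese libraries 1 and 3 from 2, 4 and 5, and set lean library 5 apart from the other lean libraries.

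Of 19882 genes tested, 1152 were called (5.79%): 532 were higher in obese mice (2.68%) and 620 lower (3.12%). With only the 10 IgG2a libraries in the fit, 583 of 17702 genes were called, 132 higher and 451 lower. Falls were the steadier side. In all 10 fits that each left out 1 IgG2a library, 418 genes were called (2.1%), 296 of them falls (1.49%) and 122 rises (0.614%); these are named steady below. The obese and lean values did not overlap in 522 of the 620 falls and in 182 of the 532 rises; over all genes tested the groups did not overlap in 6.25%, with obese values wholly below lean values in 4.42% and wholly above them in 1.83%. Without obese libraries 2 and 5, 293 genes were called (1.4%): 238 fell (1.13%) and 55 rose (0.262%), and these held 193 of the 296 steady falls and 41 of the 122 steady rises. When only libraries scoring high for B cells were kept, obese 1 and 3 against lean 1 to 4, 1896 genes were called (9.16%), 1254 of them lower (6.06%) and 642 higher (3.1%). That fit, which leaves out every Hmga2-high library, called 247 of the 296 steady falls and 49 of the 122 steady rises. Both obese libraries in it scored above every lean one in it for B cells and for lymph node stroma. The part of this imbalance in the calls of that fit was not tested. When only those scoring low were kept, obese 2, 4 and 5 against lean 5 alone, 255 genes were called (1.15%), 208 lower (0.935%) and 47 higher (0.211%); the lone lean library is assumed there to vary like the other groups.

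Over all genes tested 2.68% were called higher and 3.12% lower, the shares to set beside the list counts that follow. Glycogen metabolism fell as a group. Of its 12 members, 8 fell and none rose, with a median log2 fold change of -1.89 against 0.12 over all genes tested, and all 8 were called in every leave-one-out fit. Without obese libraries 2 and 5, 6 fell. Pygl, which breaks glycogen down, was at 67.1, 94.9, 41.3, 101 and 84.7 CPM in obese libraries and 614, 675, 645, 430 and 804 CPM in lean libraries. The highest obese value was below the lowest lean value (log2 fold change -3.02, SE 0.402, adjusted p = 7.1e-05). Gbe1, the glycogen branching enzyme, averaged 29.9 ± 8.24 CPM in obese and 199 ± 49.7 CPM in lean libraries (SD, n = 5 each). Ppp1r3b, which brings phosphatase to glycogen, was at 2.74 to 8.34 CPM in obese libraries 1 to 4, 40.7 CPM in obese library 5 and 97.1 to 182 CPM in lean libraries, a fall of -3.48 on the log2 scale. Gys2, a glycogen synthase isoform known mainly from liver, had -2.87 and an adjusted p of 0.015.

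The promoters of the glucose-handling genes were searched for short runs of letters. The windows printed here were picked among those that hold the E-box letters. They belong to Gyg, the protein that primes glycogen, Ppp1r3c, another glycogen-targeting subunit, and Pcx, pyruvate carboxylase, which all fell. Each window, from RefSeq on GRCm38.p6, runs 5′ to 3′ over 300 bases, 250 before and 50 after the gene start, with the E-box letters CACGTG in capitals.
Pcx: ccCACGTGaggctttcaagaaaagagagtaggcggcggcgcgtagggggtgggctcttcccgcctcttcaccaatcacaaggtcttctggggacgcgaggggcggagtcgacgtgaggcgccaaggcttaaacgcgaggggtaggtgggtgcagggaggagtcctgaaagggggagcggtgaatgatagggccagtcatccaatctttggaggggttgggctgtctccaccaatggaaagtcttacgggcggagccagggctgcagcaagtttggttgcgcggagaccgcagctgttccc
Ppp1r3c: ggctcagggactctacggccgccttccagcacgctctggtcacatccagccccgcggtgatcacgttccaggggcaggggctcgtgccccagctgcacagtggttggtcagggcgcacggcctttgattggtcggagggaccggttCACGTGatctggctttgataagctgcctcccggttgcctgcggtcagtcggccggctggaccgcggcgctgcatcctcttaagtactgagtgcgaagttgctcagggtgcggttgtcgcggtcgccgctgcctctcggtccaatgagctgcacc
Gyg: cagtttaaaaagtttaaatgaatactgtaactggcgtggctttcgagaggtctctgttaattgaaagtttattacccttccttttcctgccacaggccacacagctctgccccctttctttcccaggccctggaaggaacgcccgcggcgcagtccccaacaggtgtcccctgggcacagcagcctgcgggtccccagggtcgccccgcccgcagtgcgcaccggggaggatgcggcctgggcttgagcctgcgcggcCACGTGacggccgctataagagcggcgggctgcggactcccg
The Pcx window lies at chr19:4510222-4510521 on the plus strand. The Ppp1r3c window lies at chr19:36736555-36736854 on the minus strand. The Gyg window lies at chr3:20155067-20155366 on the minus strand. Of the 44 called falling members of the glycolysis, pentose phosphate, glycogen, pyruvate and citric acid cycle lists, 38 had a promoter in the table and 5 of these (13.2%) held CACGTG on either strand: Gyg, Ogdh, Pcx, Pdk2 and Ppp1r3c. The same letters were in 8.09% of all genes of the table and in 10.7% of the genes tested. TCAAGGTCA was found in Sdhd alone and TTGCGCAA in Mpc2 alone, each 2.63%, against 0.346% and 0.324% of the genes tested. TTATGTAA was found in none of the 38, against 0.798%. Pcx has 2 promoters in the table and only the printed one holds the E-box letters. A match describes letters and was not tested for binding.

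Pyruvate entry fell at most of its steps. Of 15 members, 11 fell and 2 rose (median -1.61). Mpc1, a subunit of the pyruvate carrier, was at 152, 136, 85.0, 145 and 71.4 CPM in obese libraries and 800, 585, 835, 532 and 616 CPM in lean libraries, with no overlap (-2.51, SE 0.331, adjusted p = 6.5e-05). Pdhb, a subunit of the first enzyme of pyruvate dehydrogenase, was at 149, 113, 95.9, 97.1 and 40.0 CPM in obese libraries and 868, 731, 605, 540 and 859 CPM in lean libraries. It fell by 2.86 on the log2 scale (SE 0.307, adjusted p = 6e-06). Pdha1, Dlat, Dld and Pdhx, the remaining parts of the complex, fell by 2.22, 2.07, 1.22 and 1.74. Pcx was at 144 to 518 CPM in obese and 1198 to 3083 CPM in lean libraries and fell by 3.00. The dehydrogenase kinase Pdk1, which switches the complex off, fell as well. It averaged 61.4 ± 14.1 CPM in obese libraries against 155 ± 16.7 CPM in lean libraries. Pdk2 and Pdk4, kinases of the same kind, also fell, and the 11 falls count these kinases with the steps of the route. The 2 rises, Pdp1 (1.26, adjusted p = 0.030) and Pdk3 (1.06, adjusted p = 0.040), each lost their call in at least 7 of the 10 leave-one-out fits.

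**Figure D2:**
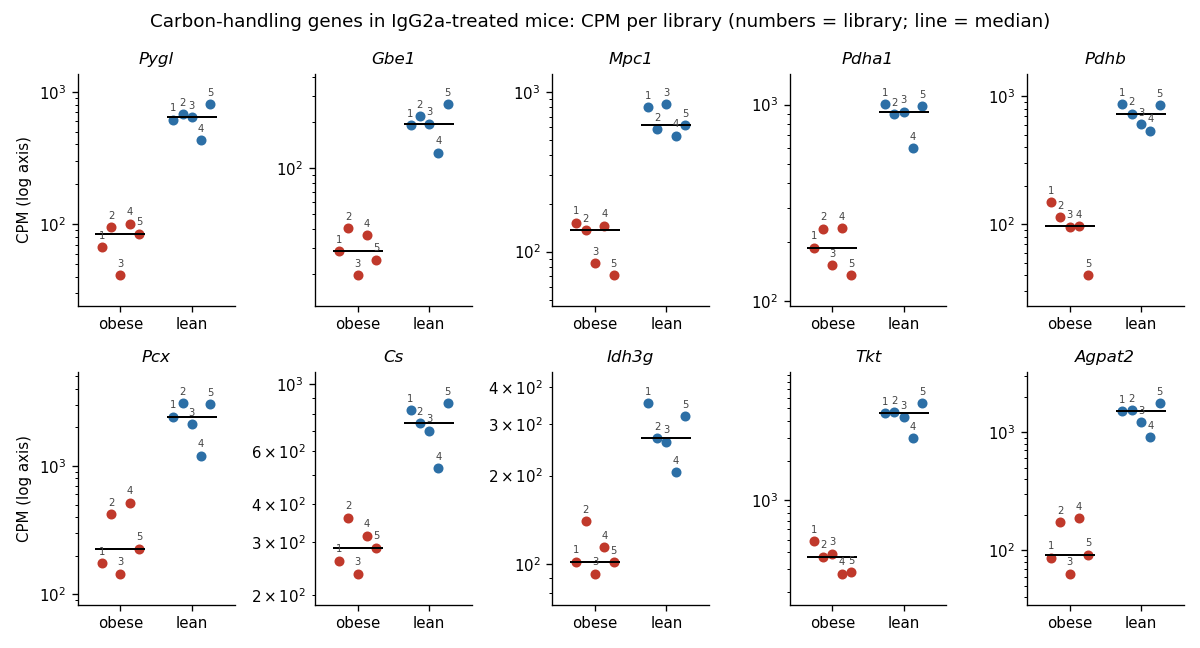
CPM per library (log axis) of 10 carbon-handling genes in 5 obese (red, left) and 5 lean (blue, right) IgG2a libraries, numbered by library, with the group median as a line. In each panel all 5 obese libraries sit below all 5 lean libraries.

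The citric acid cycle fell throughout, with 16 of 16 members called lower (median -1.24) and 12 of them called in every leave-one-out fit. With fewer libraries 8 were called without obese 2 and 5, 9 among high and 6 among low B cell score libraries, with medians of -1.11, -1.14 and -1.47. Idh3g, a subunit of the isocitrate dehydrogenase of the cycle, was at 102, 140, 92.8, 114 and 102 CPM in obese libraries and 353, 268, 261, 206 and 319 CPM in lean libraries (-1.35, SE 0.175, adjusted p = 5.5e-05). Obese values did not reach lean values. Cs, citrate synthase, and Sdha, a subunit of succinate dehydrogenase, fell by 1.33 and 1.40.

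Glucose routes outside mitochondria were lowered in part. In glycolysis 6 of 17 members fell, against 3.12% of all genes tested, and none rose. The falls included Aldoa (aldolase, -1.86), Pfkl (a phosphofructokinase, -1.39) and Ldhb (a lactate dehydrogenase subunit, -1.67). In the pentose phosphate pathway 3 of 7 fell. Tkt, transketolase, had 485, 372, 391, 275 and 283 CPM in obese libraries and 4625, 4676, 4274, 2974 and 5489 CPM in lean libraries (-3.61, SE 0.359, adjusted p = 3e-06). It was among the largest falls in level, and no obese library came near a lean one. Slc2a4, the insulin-responsive glucose transporter, was at 47.5 to 182 CPM in obese and 292 to 614 CPM in lean libraries (-2.10, adjusted p = 0.0075). Without obese libraries 2 and 5 Slc2a4 was not called, whereas Tkt was.

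Of 18 fatty acid oxidation genes 13 fell and 1 rose (median -1.25). The falls numbered 8 without lean library 1, 2 or 5 or obese library 5, and 7 without obese libraries 2 and 5 together. Hadha and Hadhb, the trifunctional protein of the mitochondrial spiral, fell by 1.64 and 1.76, and Acadvl, the very-long-chain dehydrogenase, by 1.80. Lean library 1 had the highest level of each, at 797, 1228 and 947 CPM, and each was called in every leave-one-out fit. The part of muscle transcripts in these falls was not tested. The rise was Cpt1a, the widely expressed gatekeeper of fatty acid entry, at 59.2, 81.3, 69.6, 114 and 126 CPM in obese libraries and 41.1, 42.1, 39.2, 40.7 and 41.3 CPM in lean libraries. Every obese library was above every lean library (1.14, SE 0.201, adjusted p = 0.0017). Its muscle and brown fat counterpart Cpt1b fell by 3.49, and lean library 1, which held muscle transcripts, had the highest level at 112 CPM.

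In triglyceride synthesis 4 of 14 genes fell, and 2 without obese libraries 2 and 5, led by Agpat2, which adds the next acyl chain to lysophosphatidic acid. It was at 86.8, 174, 63.3, 187 and 91.6 CPM in obese libraries and 1509, 1529, 1216, 911 and 1761 CPM in lean libraries (-3.52, adjusted p = 0.00016), with no overlap. Of 22 genes that break down branched-chain amino acids, 9 fell (median -0.94). The falls numbered 4 or 5 without lean library 1, 2 or 5 or obese library 5, and 1 without obese libraries 2 and 5 together. Bcat1, the cytosolic transaminase of the same amino acids and outside that list, went the other way, at 14.0, 82.8, 8.83, 42.3 and 96.8 CPM in obese libraries and 2.07, 2.96, 2.85, 5.60 and 4.37 CPM in lean libraries (3.78, adjusted p = 0.00051). Its 3 highest values were those of the Hmga2-high libraries, yet obese libraries 1 and 3 also exceeded every lean library.

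**Figure D3:**
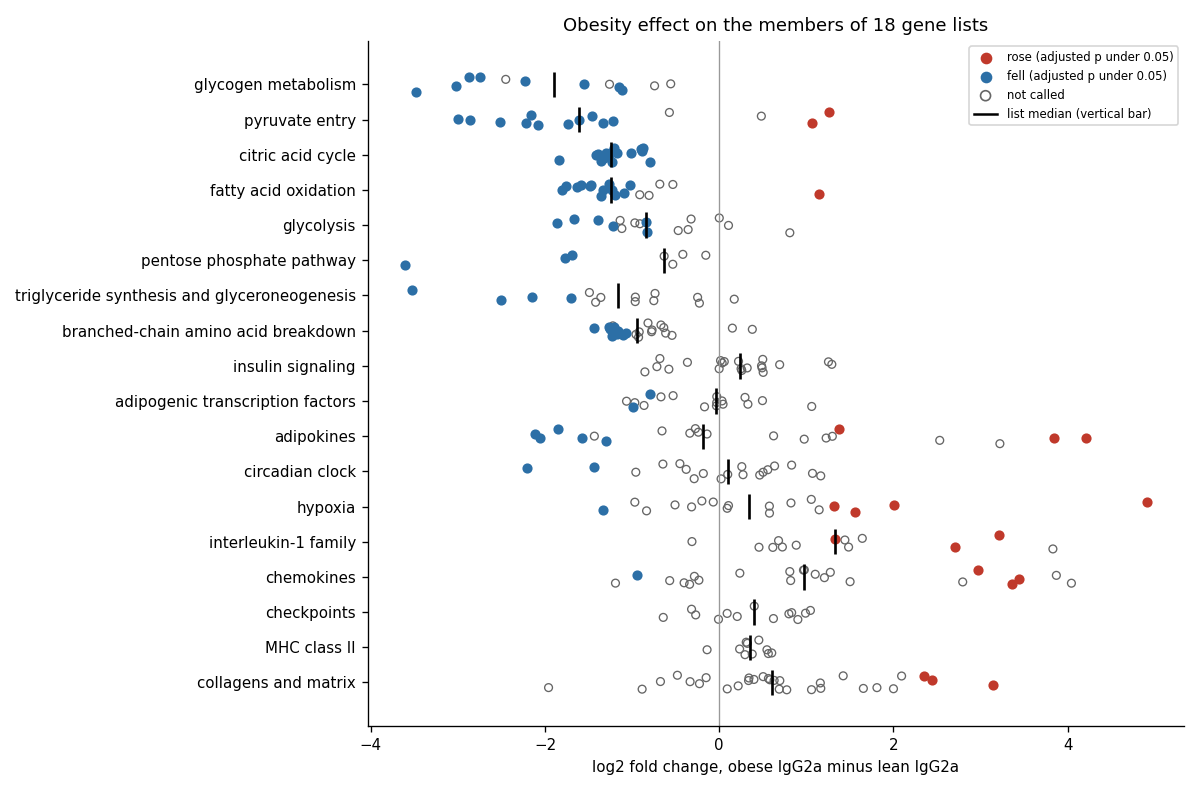
Log2 fold change, obese minus lean, of each tested member of 18 gene lists, with called rises in red, called falls in blue, other members open and the list median as a bar. The carbon lists at the top lie left of 0, and insulin signaling holds no called member.

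None of 20 insulin signaling genes was called (median 0.24), although 1 rose and 4 fell in the high B cell score libraries, and of 17 adipogenic transcription factors, 2 fell, Stat5a (-0.80) and Cebpb (-0.99, a call lost in 9 leave-one-out fits). Pparg, the master regulator of adipocytes, was at 48.9 to 189 CPM in obese and 104 to 325 CPM in lean libraries (-1.06, adjusted p = 0.20). Adipoq had -0.66 (adjusted p = 0.54). Of 16 adipocyte markers 4 fell, and none without obese libraries 2 and 5, among them Retn, resistin (-2.06), and Adrb3, the adipocyte beta-3 adrenergic receptor (-1.96). Cfd, adipsin, had -2.12 and lost its call in 7 of the leave-one-out fits.

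Several of the firmest falls lay outside these lists. Parm1, a membrane mucin, was at 19.7, 14.7, 16.8, 14.4 and 7.58 CPM in obese libraries and 181, 258, 282, 138 and 292 CPM in lean libraries (-3.97, SE 0.292, adjusted p = 5.4e-08). Tmem79, a membrane protein known from skin barrier formation in mice, was at 0.525 to 3.81 CPM in obese and 53.7 to 102 CPM in lean libraries (-5.18). Neither gene overlapped between groups. Ddo, which oxidizes D-aspartate, fell by 3.54, Ntrk3, a neurotrophin receptor, by 3.35, and P2rx5, an ATP-gated channel found on brown adipocytes, by 4.04. Coq8a, needed for coenzyme Q synthesis, fell by 2.03 and Coasy, which completes coenzyme A, by 1.69.

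Rises fell into those seen in all obese libraries and those carried by some. Fkbp5, a chaperone of the glucocorticoid receptor that glucocorticoids induce, was at 105, 112, 109, 106 and 126 CPM in obese libraries and 31.4, 36.6, 31.2, 44.8 and 20.9 CPM in lean libraries (1.76, SE 0.207, adjusted p = 2e-05). The obese libraries lay within a narrow band above all lean ones. Among 16 glucocorticoid-responsive genes it was the only rise, and Glul, glutamine synthetase, fell (-1.30, adjusted p = 0.031), a call lost in 5 leave-one-out fits. Hsd11b1, which regenerates active glucocorticoid, fell to 57.0 ± 18.8 CPM in obese libraries against 284 ± 91.8 CPM in lean libraries (-2.32, adjusted p = 0.00045). Cpe, a peptide-processing carboxypeptidase, was at 93.8, 96.2, 66.3, 45.7 and 65.4 CPM in obese libraries and 25.97, 25.8, 21.7, 25.7 and 34.4 CPM in lean libraries (1.46, adjusted p = 0.00036). Hmox1, heme oxygenase, was at 52.99 to 140 CPM in obese and 17.7 to 31.5 CPM in lean libraries (1.83, adjusted p = 0.0018). Il1rn, the interleukin-1 receptor antagonist, was at 9.31 to 27.4 CPM in obese and 1.49 to 4.66 CPM in lean libraries (2.71, adjusted p = 0.0017).

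**Figure D4:**
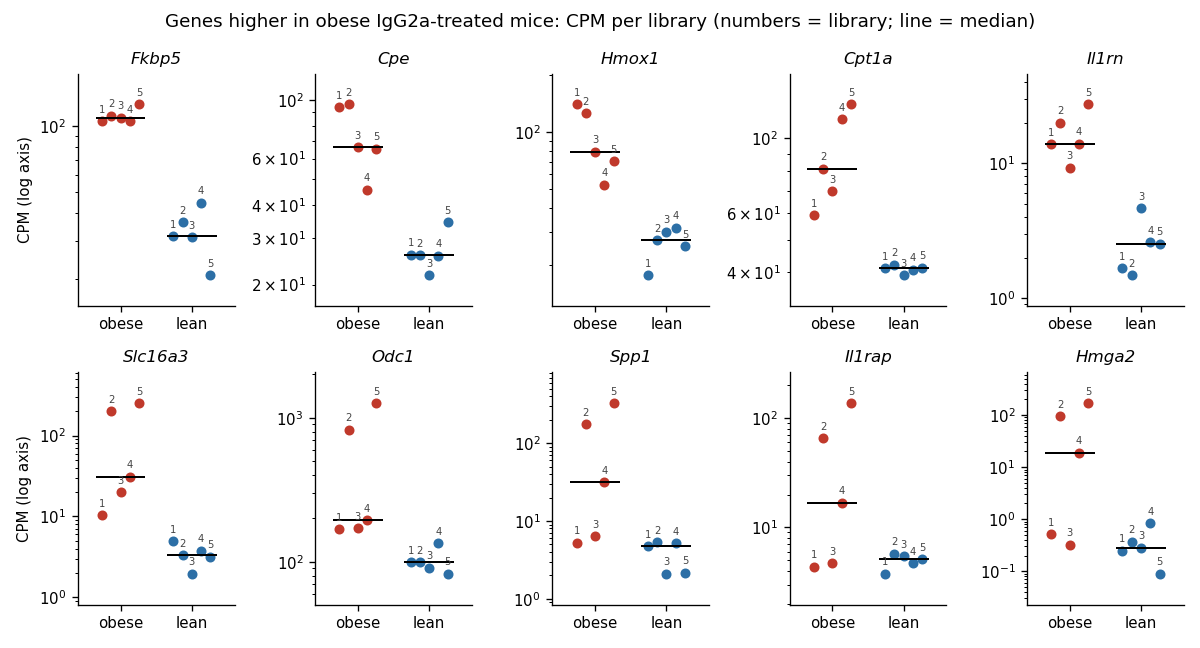
CPM per library (log axis) of 10 genes in 5 obese (red, left) and 5 lean (blue, right) IgG2a libraries, numbered by library, with the group median as a line. Fkbp5, Cpe, Hmox1, Cpt1a and Il1rn are raised in every obese library, whereas Spp1, Il1rap and Hmga2 are high in obese libraries 2, 4 and 5.

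In other rises the highest values were those of obese libraries 2 and 5. Slc16a3, a lactate exporter, was at 10.3, 200, 19.9, 31.2 and 253 CPM in obese libraries and 1.95 to 4.92 CPM in lean libraries (4.91, adjusted p = 0.0027). It belongs to the hypoxia list, where 4 of 18 members rose and 1 fell. The fall, Pdk1, had the smallest p of that list. Without libraries 2 and 5 no hypoxia gene rose and 1 fell. Odc1, the first enzyme of polyamine synthesis, was at 168, 827, 172, 195 and 1265 CPM in obese libraries and 82.6 to 135 CPM in lean libraries (2.37, adjusted p = 0.0033). Il1rap, the shared interleukin-1 receptor subunit, was at 4.38, 66.1, 4.74, 16.8 and 138 CPM in obese libraries and 3.77 to 5.75 CPM in lean libraries (3.21, adjusted p = 0.0051). For Slc16a3 and Odc1 all 5 obese libraries were above all lean ones, whereas for Il1rap obese libraries 1 and 3 were inside the lean range. Without libraries 2 and 5 the calls ended, with 2.60 for Slc16a3 (adjusted p = 0.087), 0.84 for Odc1 (adjusted p = 0.13) and 0.81 for Il1rap (adjusted p = 0.46). In the high B cell score libraries Slc16a3 was called at 2.09 (adjusted p = 0.022), Odc1 had 0.66 (adjusted p = 0.075) and Il1rap had -0.14 (adjusted p = 0.81). Spp1, osteopontin, and Vim, vimentin, had 4.81 and 1.499 over all libraries and 1.90 and 0.92 without libraries 2 and 5 (adjusted p = 0.34 and 0.12). Of 8 proliferation and tumor-like markers 5 rose, and none without libraries 2 and 5, with scores of 2.64 to 6.22 in obese and 0.81 to 2.68 in lean libraries. The part of tumor-like material in these rises was not tested.

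Immune lists differed in how many members were called. The chemokine, interleukin-1 and macrophage lists held a larger share of rises than the 2.68% over all genes tested. Of 22 chemokine genes tested 3 rose, the monocyte attractants Ccl2 (3.37, adjusted p = 0.014) and Ccl7 (2.97, adjusted p = 0.0071) and the neutrophil attractant Cxcl1 (3.44, adjusted p = 0.032), and 1 fell. The fall was called in none of the leave-one-out fits. Without obese libraries 2 and 5 no chemokine was called, with Ccl2 at 2.29 (adjusted p = 0.20), Ccl7 at 2.42 (adjusted p = 0.085) and Cxcl1 at 3.43 (adjusted p = 0.13). In the high B cell score libraries Ccl7 (1.92, adjusted p = 0.021) and Cxcl1 (2.95, adjusted p = 0.017) were called and Ccl2 was not (1.55, adjusted p = 0.086). Of 13 interleukin-1 genes 3 rose (median 1.33, against 0.12 over all genes tested), and by sign 12 were higher in obese mice and 1 lower. All 3 were called in every leave-one-out fit. The interleukin-1 rises numbered 1 without obese libraries 2 and 5, 1 with only the 10 IgG2a libraries and 4 in the high B cell score libraries. Under anti-PD-1, 1 rose (median 0.21). Of 15 macrophage markers 4 rose, including Itgam, an integrin of myeloid cells (2.12, adjusted p = 0.0017). By sign 14 were higher in obese mice and 1 lower. Leaving out lean library 1, 2, 3 or 5, or obese library 2 or 5, left 1 marker called, as did leaving out obese libraries 2 and 5 together. Trem2, a lipid-sensing receptor of macrophages, was at 5.11 to 12.4 CPM in obese and 0.321 to 2.09 CPM in lean libraries (2.86, adjusted p = 0.0043), and was called without libraries 2 and 5 as well (adjusted p = 0.018). The lipid-associated macrophage list it belongs to was split, with 5 of 15 members called higher and 3 lower. The lower ones included Fabp5, a fatty acid carrier (-1.79), and Plin2, a lipid droplet coat protein (-1.58), both also made by adipocytes. The rises numbered 3 without lean library 1 or 2, and without obese libraries 2 and 5 there were 2 rises and 1 fall. No T cell, B cell, cytotoxic, dendritic or MHC class II gene of the lists was called in the fit of all libraries, and none of 13 checkpoint genes. In the high B cell score libraries 2 checkpoint and 2 B cell genes rose. The T cell, dendritic and MHC class II lists each had 1 rise there, and the cytotoxic list had none. Among these libraries the lymph node stroma score was 7.25 and 7.55 in obese and 4.36 to 6.31 in lean mice. The part of lymph node content in these rises was not tested. The checkpoint list also had 1 rise with only the 10 IgG2a libraries, with the B cell score as a covariate, under the stricter filter and by DESeq2. Cd274, which encodes PD-L1, was at 32.1 ± 5.50 CPM in obese and 32.3 ± 6.77 CPM in lean libraries (adjusted p = 0.99). Pdcd1, which encodes PD-1, was at 10.8 and 11.04 CPM in obese libraries 1 and 3, at most 0.989 CPM in the other obese libraries, and 0.0445 to 5.54 CPM in lean libraries. Its highest values were in libraries with a high B cell score.

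Among secreted factors, 3 of 20 adipokines rose and 5 fell, against 2.68% and 3.12% of all genes tested. The falls numbered 2 without lean library 1, 2 or 5 and 3 without obese library 2, 3 or 5, and without obese libraries 2 and 5 together there were 1 rise and no fall. Lep, leptin, which tracks fat mass, was at 416, 1609, 195, 3144 and 868 CPM in obese libraries and 118, 259, 218, 87.3 and 396 CPM in lean libraries. The groups overlapped through obese library 3, and the difference was not called (2.53, SE 0.770, adjusted p = 0.054). The highest values were those of obese libraries 2, 4 and 5. Lep had 2.52 without obese libraries 2 and 5 (adjusted p = 0.20) and 0.81 in the high B cell score libraries (adjusted p = 0.29). It was called with DESeq2 size factors, under the stricter filter, with the B cell score as a covariate and by DESeq2. Sfrp5, a secreted Wnt antagonist of expanding fat, was at 107, 357, 53.4, 962 and 363 CPM in obese libraries and 1.80 to 26.7 CPM in lean libraries (5.31, adjusted p = 0.0054), with no overlap. In the matrix list 3 of 30 genes rose, Thbs1, Thbs2 and Tnc (median 0.61), against 2.68% of all genes tested. Without obese libraries 2 and 5 none was called, and in the high B cell score libraries 1 rose and 8 fell, with the median turned to -0.98. Of 19 clock genes 2 fell, against 3.12% of all genes tested. Npas2 (-2.21) was among them, and its call was lost in 8 leave-one-out fits. Of 16 mammary epithelial markers 5 fell, against 3.12% of all genes tested. None of those calls survived every leave-one-out fit, and none was made without obese libraries 2 and 5. By sign all 16 were lower (median -1.29). Obese values lay wholly below lean values in 11 of them, against 4.42% of all genes tested. Under anti-PD-1, 13 of the 16 fell. Krt5, a basal keratin, had -3.19 under IgG2a (adjusted p = 0.031).

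In mice given anti-PD-1, a set of libraries that shares none with the IgG2a mice, 1999 genes were called between obese and lean (10.1%), 965 lower (4.85%) and 1034 higher (5.2%). Of the 296 steady IgG2a falls, 256 (86.5%) were called there too, which is 26.5% of its falls. Of the 122 steady rises, 54 (44.3%) were called, which is 5.22% of its rises. Both comparisons came from the same fit and share each gene's estimate of the spread, so these overlaps are not independent evidence. Mpc1 had -2.51 under IgG2a and -2.63 under anti-PD-1, Tkt -3.61 and -3.63, and Parm1 -3.97 and -3.81. Slc16a3 had 4.91 under IgG2a and 0.73 under anti-PD-1, Odc1 2.37 and 0.12, and Il1rap 3.21 and -0.17. Hmga2 reached at most 5.84 CPM in the 8 obese anti-PD-1 libraries. Fkbp5 had 1.76 under IgG2a and 0.72 under anti-PD-1, a difference of 1.03 (SE 0.270). In the test of the difference between antibodies no gene was called by edgeR (0%), with 1449 at an unadjusted p under 0.05 (7.29%), 50 called by DESeq2 and 1 by limma voom. The adjusted p of the difference was 0.40 for Fkbp5, Odc1, Slc16a3 and Il1rap.

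**Figure D5:**
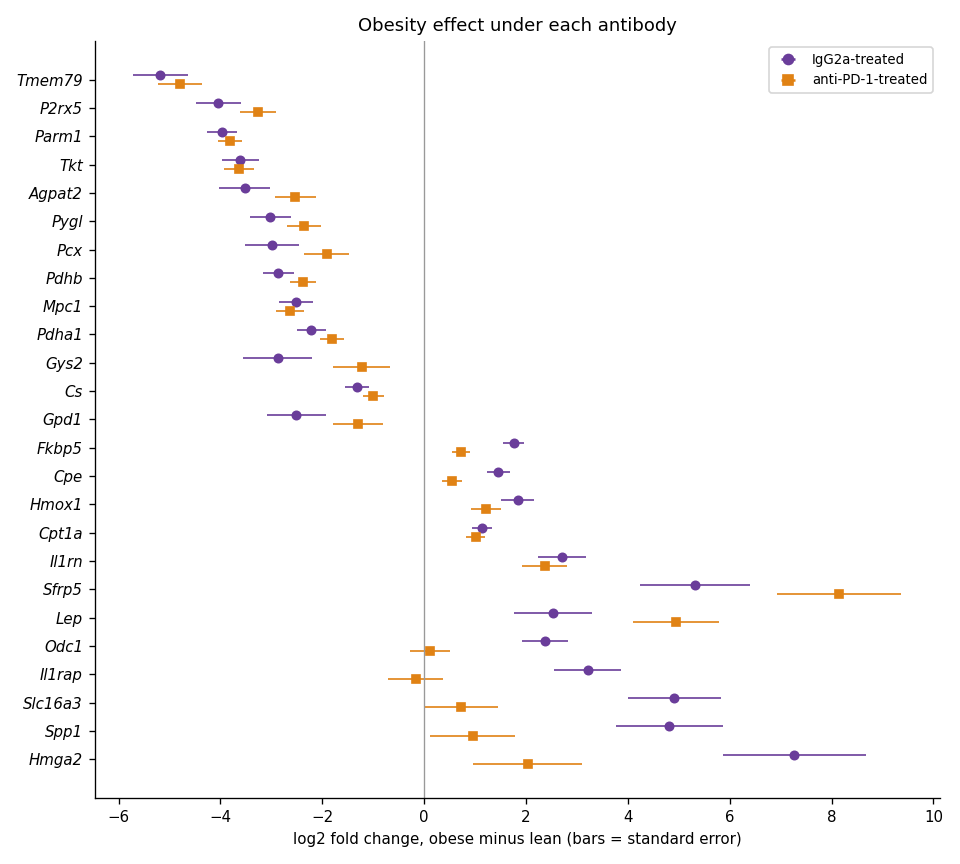
Log2 fold change, obese minus lean, with standard errors, for named genes in IgG2a-treated (circles) and anti-PD-1-treated (squares) mice. Tkt, Mpc1 and Parm1 lie close together under both antibodies, and Slc16a3, Odc1 and Il1rap lie apart, a difference that did not pass the adjusted test.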

How the data were processed

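RNA was extracted from tumor-adjacent fat with a kit for lipid-rich tissue, only RNA with an integrity number over 5 went into libraries, which were poly(A)-enriched and non-directional, per the labels' protocols, so overlapping antisense genes cannot be told apart. The authors deposited an estimated count and a TPM per transcript for each library; the TPM values deposited by the authors were not used. The submitters' processing notes name edgeR, limma and GRCm38; the quantification software behind these estimates is not named in the labels or headers read here.

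Estimated counts were summed per gene with the GENCODE M21 map (114200 of 115088 transcripts matched; the other 888 held at most 0.208% of a library's counts) and rounded. No transcript of the mitochondrial genome was in the map. Genes were kept by edgeR's filter with a minimum count of 10, leaving 19882, and fitted over all 23 libraries with TMM scaling and robust quasi-likelihood (edgeR 4.0.16, R 4.3.3); tests were two-sided. The common biological coefficient of variation was 0.805. The labels give no batch. Alternatives used limma 3.58.1 and DESeq2 1.42.0, other filters and scalings, and omitted libraries. Scripts were tested on simulated data.

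The comparison, gene lists and naming rule were chosen with earlier results of these data known. The rule took the 15 steady genes of smallest p in each direction (at least 4 CPM in a group). It also took the called genes with the 8 largest CPM differences in each direction. Genes with predicted names were left out of both picks. The rule then added up to 3 called members per list and direction, the leading member of lists with none, and fixed hormone, checkpoint and marker genes. The text describes part of the 191 genes it selected, and some are not reported here. Of 196 genes tabulated, 5 have no value in at least 1 alternative, and 8 were chosen after their values were seen: Dlat, Dld, Mpc1, Mpc2, Gys2, Cs, Ppp1r3c and Gyg. The lists for fatty acid synthesis, thermogenic fat, respiratory chain and cholesterol synthesis were set aside in choosing genes, except for the per-list picks.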

Additional observations from a re-analysis of the deposited data

Results flagged for a closer look

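In groups of 5 libraries, a highest or lowest value far from the others was looked for in 196 genes and 24 marker scores, and 27 of 440 groups had one; chance gives about 1 in 20 groups. In obese library 5, Alb was high at 6363 CPM and Il1r1 at 158 CPM, while Ntrk3 at 1.26, Adrb3 at 41.5, Cfd at 412, Emcn at 7.40 and Cd209a at 0.439 CPM were low. In obese library 3, Ckm at 78.2 CPM, Pvalb at 10.4 CPM and the skeletal muscle score at 4.64 were high, and Trp63 at 0.562 and Fdft1 at 34.8 CPM were low. Gdf15 was low in obese library 4 at 2.19 CPM, and Ccr3 had 0 CPM in obese library 1. In lean library 1, Coq8a at 279, Acadvl at 947 and Hadhb at 1228 CPM were high. In lean library 4, Pdha1 at 602, Acacb at 447 and Insig1 at 439 CPM were low, Upk1b had 0 CPM, and the plasma cell score was high at 4.07. In lean library 5, Cd79a at 1.79, Cd79b at 1.68 and Pdcd1 at 0.0445 CPM, the B cell score at -1.68 and the lymph node stroma score at -2.78 were low.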

How the results depend on the processing

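No paired analysis was possible because replicate numbers were given in accession order and pair no samples. The 1152 calls (532 up, 620 down) became 583 (132 up) with only the 10 IgG2a libraries in the fit, 2966 (1424 up, 1542 down) with the B cell score as a covariate, 293 (55 up, 238 down) without obese libraries 2 and 5, 1896 (1254 down) among high and 255 (47 up, 208 down) among low B cell score libraries, and 2090 (1176 up) by DESeq2; limma voom called 217 up. Leaving out 1 library gave 495 to 1662 calls, 157 to 1047 up and 338 to 642 down, with the fewest rises without lean library 1 (157) and obese library 5 (167). The difference between antibodies had 0 calls, against 2 among low-score libraries, 1 by limma voom, 50 by DESeq2, and 0 to 1 with a library left out. Some signs turned. Among high-score libraries Il1rap had -0.14, Hmga2 -0.083, Fosl1 -0.95, Dkk2 -0.99, Mmp13 -0.41, Sdc1 -0.44 and Alb -1.68. Alb had -2.15 without obese libraries 2 and 5 and -1.58 without library 5. Among low-score libraries Cd274 had 0.41, Cd79a -1.23, Cd79b -0.13 and Pdpn -0.054. Cd274 also had 0.024 with DESeq2 size factors and by DESeq2, 0.007 under the stricter filter, 0.093 with the covariate, and -0.071 to 0.101 with a library left out. Cd79a had -0.62 with the covariate and -2.75 by limma voom, which also gave Cd79b -1.50, Cd247 -0.14 and Madcam1 -0.99. Leave-one-out ranges crossed 0 for Ckm (-11.95 to 0.24), Cd79a (-0.13 to 1.27), Cd247 (-0.49 to 0.95), Hba-a1 (-1.31 to 0.67), Hbb-bs (-1.51 to 0.41), H2-DMb1 (-0.001 to 0.58) and Alb (-1.58 to 4.14). None of these was called in the fit of all libraries except Il1rap, Hmga2, Fosl1, Dkk2, Mmp13 and Sdc1. The cause of these changes was not tested. A common coefficient of variation of 0.805 with 5 libraries a group limits detection of small differences.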
